A study of Homo sapiens with 6 samples.

Results

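VEZF1 and its close relatives MAZ and PATZ1, which encode C2H2 zinc finger transcription factors, were followed in the RNA of HepG2 cells, an established human liver cancer line. The members were the rows of the count table named VEZF1, MAZ and PATZ1, 3 of 59608 genes, and every one passed the filter on low counts. The table covers 6 RNA-seq libraries, 3 labelled VEZF1-WT and 3 labelled VEZF1-2A. Before RNA was taken from either group, a lentivirus carrying a guide RNA had been used to remove endogenous VEZF1, and VEZF1 was then put back, as the wild-type form in VEZF1-WT or, in VEZF1-2A, as a form with alanine at serines 123 and 124. The study asked what the O-GlcNAc sugar on these serines does for VEZF1. By the study's methods VEZF1 was put back with adenoviruses that carried an amplified VEZF1 fragment; for HepG2 this is described in a reporter experiment and not for the sequenced cells themselves. Whether the cells were 1 clone and whether the 3 libraries of a group came from separate cultures are not given in the sources used here, so p-values measure the spread between libraries, which may be technical. Cells with their own VEZF1 intact, and cells that lost it and got nothing back, were not analysed here, and no level relative to such cells can be given.

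Proteins of this family hold a row of zinc fingers, small folds in which a pair of cysteines and a pair of histidines grip a zinc ion, and they bind G-rich DNA such as runs of guanine in promoters. VEZF1 was named for the vascular endothelium and is needed for blood vessel development. MAZ, the MYC-associated zinc finger protein, binds promoters of many widely expressed genes and has been placed at insulators beside CTCF. PATZ1 carries a POZ domain, a protein contact module, ahead of its fingers and can activate or repress its targets. In liver cells VEZF1 is not a lineage factor in the way HNF4A is, and all members are expressed in many cell types.

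The region that sets the groups apart is shown first. It is a stretch of 66 bases on the minus strand of GRCh38, chr17:57983025-57983090, inside exon 2 of 6 of the transcript VEZF1-202 (chr17:57982699-57983393), and it encodes residues 113 to 134. The capitals mark the codons of serines 123 and 124, at chr17:57983055-57983060.
VEZF1 serine pair: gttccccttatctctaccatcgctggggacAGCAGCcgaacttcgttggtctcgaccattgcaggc
This is the reference sequence from the GENCODE 29 transcripts, and the bases used for the alanine form were not used here. The forms are described as differing at these 2 codons, so a read that misses them is the same for either form, and a count per gene cannot tell a re-expressed form from what is left of the endogenous gene.

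What the members share is shown by the second finger of each, where VEZF1 is more like both relatives than in any other finger. The capitals mark the codons of the cysteines and histidines that hold the zinc. The VEZF1 finger (residues 176 to 196) is at chr17:57982839-57982901 on the minus strand of GRCh38, that of MAZ (residues 281 to 301) at chr16:29807626-29807688 on the plus strand, and that of PATZ1 (residues 357 to 377) at chr22:31344472-31344534 on the minus strand. Each lies within 1 exon.
VEZF1: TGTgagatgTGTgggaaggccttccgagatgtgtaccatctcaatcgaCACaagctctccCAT
MAZ: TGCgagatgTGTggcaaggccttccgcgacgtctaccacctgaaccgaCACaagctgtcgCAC
PATZ1: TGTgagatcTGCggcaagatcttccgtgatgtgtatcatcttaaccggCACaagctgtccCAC
All 21 residues were identical in VEZF1 and MAZ, while 52 of the 63 bases (82.5%) were. PATZ1 shared 19 of the 21 residues with either, and 81.0% of the bases with VEZF1 and 79.4% with MAZ. The RNAs were thus less alike here than the proteins.

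Over the whole translated coding sequence, VEZF1 (521 residues) held 5 matches to the C2H2 pattern, and MAZ (493 residues) and PATZ1 (687 residues) held 7 each. The pattern was 2 cysteines, 12 residues and then 2 histidines or a histidine and a cysteine, with 2 to 4 residues in the first gap and 3 to 5 in the last. The study describes more C2H2 motifs in VEZF1 than the 5 matched here, so this strict pattern may miss fingers. It may also match outside true fingers, and fingers are numbered here by these matches. A first finger stood alone in each protein, and fingers 2 to 5 followed as a block of 108 residues in which the starts of successive fingers lay 28, 30 and 29 residues apart in every member. Within the block, 80.6% of residues were identical between VEZF1 and MAZ, 75.0% between MAZ and PATZ1 and 72.2% between VEZF1 and PATZ1. The lone first finger was less alike, with 52.4% of residues identical between VEZF1 and MAZ and 47.6% between VEZF1 and PATZ1. Serines 123 and 124 of VEZF1 lie in the 79 residues between the first finger and the block. That stretch held 5 pairs of adjacent serines in VEZF1, overlapping pairs included, against 0 in the 68 residues of MAZ and 0 in the 42 residues of PATZ1.

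**Figure D1:**
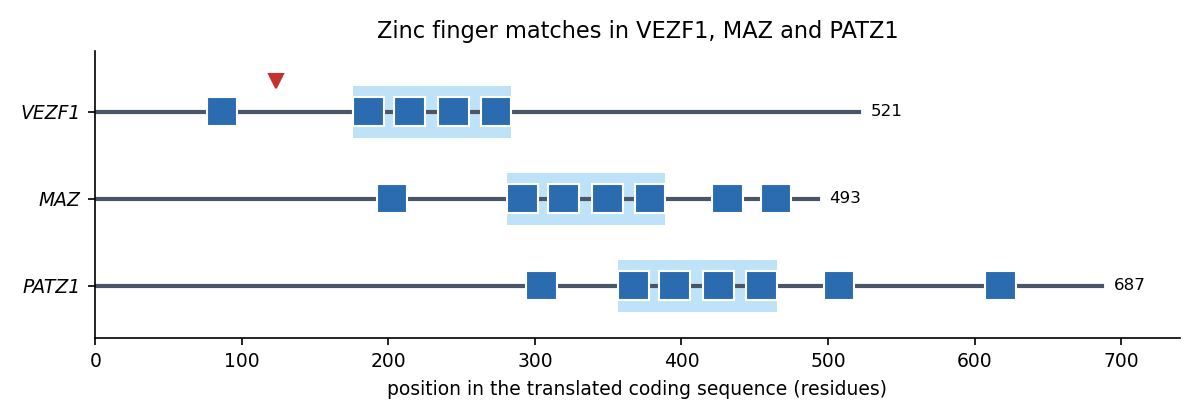
The translated coding sequences of VEZF1, MAZ and PATZ1 are drawn to scale in residues, with dark boxes where a C2H2 match starts, light shading over the block of fingers 2 to 5 and a triangle over serines 123 and 124 of VEZF1. The block has the same spacing in all 3, and the serine pair lies ahead of it, after the first finger.

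Similar proteins can cost a gene its reads when the RNAs are alike too, so the exons of the members were compared. The longest run of bases shared exactly was 16 between VEZF1 and MAZ, 18 between VEZF1 and PATZ1 and 15 between MAZ and PATZ1. The processed copy VEZF1P1 shares a run of 111 bases with VEZF1. It was counted at 4, 8 and 0 reads for VEZF1-WT and at 4, 8 and 8 for VEZF1-2A. VEZF1 had 1288 or more in every library. How reads that fit both genes were treated is not given in the sources used here, so whether VEZF1 lost reads in this way was not tested.

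The libraries held 28756765 to 57199396 counts, a range of 1.99 times, and their TMM factors (the composition correction to library size) were 0.977 to 1.01. Between 81.0% and 83.0% of the counts from 1 to 10 were even numbers, so single counts may be tied to one another. Every test took its error from the spread between libraries, which edgeR draws for each gene toward that of other genes. Replicate 3 of VEZF1-WT and replicate 3 of VEZF1-2A stood apart together: over the genes tested, their deviations from their group means correlated at 0.38, against -0.29 to 0.18 for every other pair of libraries across the groups, and results that rest on them are given with and without them. The label of the cell line was checked with 11 hepatocyte and HepG2 markers, whose summed level was 14814 to 18809 CPM (counts scaled to library size, as edgeR's cpm gives them) in VEZF1-WT and 14162 to 18205 in VEZF1-2A, with none of the 11 at 0. The 7 endothelial markers, of interest because VEZF1 was named for that tissue, summed to 2.48 to 3.74 CPM and 2.32 to 4.37 CPM, and the 5 fibroblast markers to 0.954 to 1.35 and 1.20 to 1.99. The 5 leukocyte markers summed to 497 to 664 and 494 to 640 CPM, of which LYZ made up 562 on average, with PTPRC, which defines leukocytes, at 0.121 CPM or less. No marker of these lists was at 0 in every library, and their part in the members' values was not tested.

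VEZF1 spans 16713 bases on the minus strand of GRCh38, chr17:57971547-57988259, with 8 merged exons of 4913 bases. Replicates 1, 2 and 3, in that order, had 2807, 1623 and 2253 raw counts for VEZF1-WT, against 1346, 1944 and 1288 for VEZF1-2A. After TMM scaling these became 59.3, 45.6 and 40.0 CPM for VEZF1-WT, against 46.2, 48.6 and 38.9 CPM for VEZF1-2A. Replicate 1 of VEZF1-WT was the highest and replicate 3 the lowest in either group, and the groups overlapped. The RNA of VEZF1 was therefore present in all 6 libraries, with means of 48.3 ± 9.95 CPM (SD, n = 3) in VEZF1-WT and 44.5 ± 5.06 CPM (SD, n = 3) in VEZF1-2A.

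MAZ covers 5059 bases on the plus strand, chr16:29806106-29811164, with 8 merged exons of 3512 bases. In the same order of replicates, its raw counts were 3757, 2418 and 4818 for VEZF1-WT, against 1823, 2784 and 2734 for VEZF1-2A. In CPM, MAZ was at 79.4, 67.9 and 85.5 for VEZF1-WT, against 62.6, 69.6 and 82.5 for VEZF1-2A. Here replicate 3 was the highest of each group, the reverse of VEZF1, and the groups overlapped again. The means were 77.6 ± 8.94 CPM (SD, n = 3) and 71.5 ± 10.1 CPM (SD, n = 3).

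PATZ1 spans 20543 bases on the minus strand, chr22:31325804-31346346, with 6 merged exons of 5807 bases. It was the scarcest member, with 359, 218 and 483 raw counts for VEZF1-WT, against 219, 326 and 245 for VEZF1-2A. Scaled, PATZ1 stood at 7.58, 6.12 and 8.57 CPM for VEZF1-WT, against 7.51, 8.14 and 7.39 CPM for VEZF1-2A. The lowest and the highest library were both of VEZF1-WT, so the VEZF1-2A values lay wholly inside its range. The means were 7.42 ± 1.23 CPM (SD, n = 3) and 7.68 ± 0.404 CPM (SD, n = 3).

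**Figure D2:**
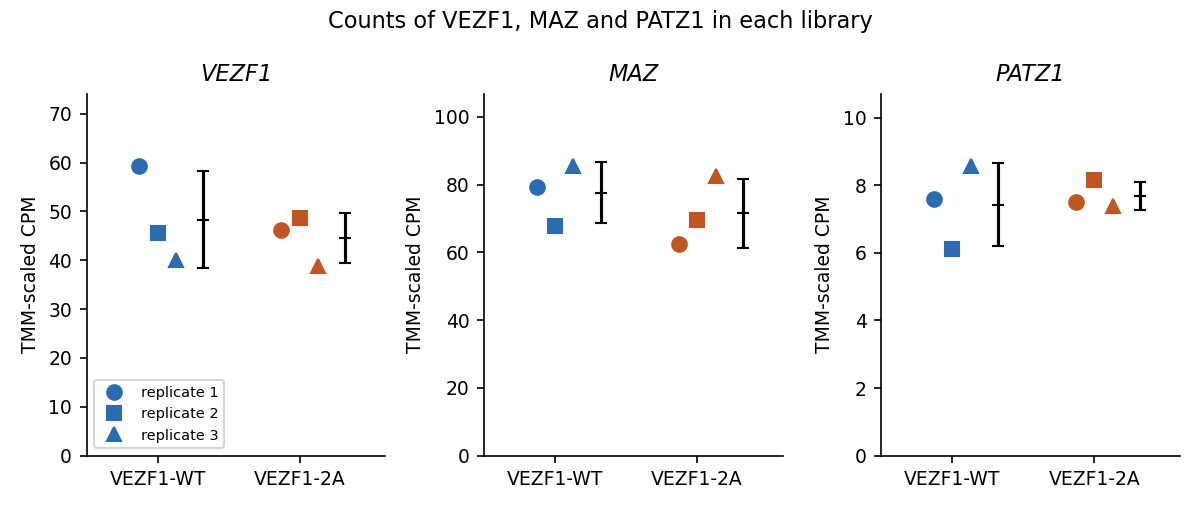
Points show the CPM of VEZF1, MAZ and PATZ1 in each library, with a symbol for each replicate number and a bar with whiskers for the mean ± SD of the 3 libraries of a group. Vertical axes start at 0 and differ between panels, and in each panel the VEZF1-WT and VEZF1-2A points overlap.

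None of the 3 members passed the test between VEZF1-WT and VEZF1-2A, and in all 3 the groups overlapped. The log2 fold change, positive where VEZF1-WT was higher, was 0.12 for VEZF1 (standard error 0.13, 95% interval -0.18 to 0.41). For MAZ it was also 0.12 (standard error 0.11, 95% interval -0.12 to 0.36). PATZ1 had -0.04 (standard error 0.13, 95% interval -0.33 to 0.25). The quasi-likelihood test of edgeR, with Benjamini-Hochberg correction for 19111 genes, put the adjusted p of each at 0.9996, and the unadjusted p-values from edgeR were 0.407, 0.298 and 0.746. Two-sided exact permutation tests of the single genes gave p = 0.7 for VEZF1, 0.5 for MAZ and 0.9 for PATZ1, where 3 libraries against 3 cannot give less than 0.1. Over all genes tested, 0% had an adjusted p under 0.05 (0 genes), 2.13% had an unadjusted p under 0.05 (408 genes) and 7.36% had groups that did not overlap (1406 genes). The intervals still hold a VEZF1 level in VEZF1-WT from 0.882 to 1.33 times that in VEZF1-2A, a MAZ level from 0.920 to 1.28 times and a PATZ1 level from 0.793 to 1.19 times. These intervals rest on variances that edgeR draws toward those of other genes. VEZF1 and MAZ spread within groups more than 95.6% and 94.0% of the genes closest to them in level. Their intervals may thus be too narrow, and larger differences in them are not excluded. Smaller differences could not be seen with 3 libraries a group.

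Single libraries set the direction for VEZF1 and PATZ1. Without replicate 1 of VEZF1-WT the log2 fold change of VEZF1 was -0.06, and PATZ1 turned to 0.07 without replicate 2 of VEZF1-WT. MAZ stayed higher in VEZF1-WT whichever library was left out, from 0.03 to 0.23. Without both libraries numbered 3, an alternative chosen after the data were seen, the log2 fold changes were 0.15 for VEZF1, 0.15 for MAZ and -0.19 for PATZ1, each with an adjusted p of 0.990 from edgeR.

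**Figure D3:**
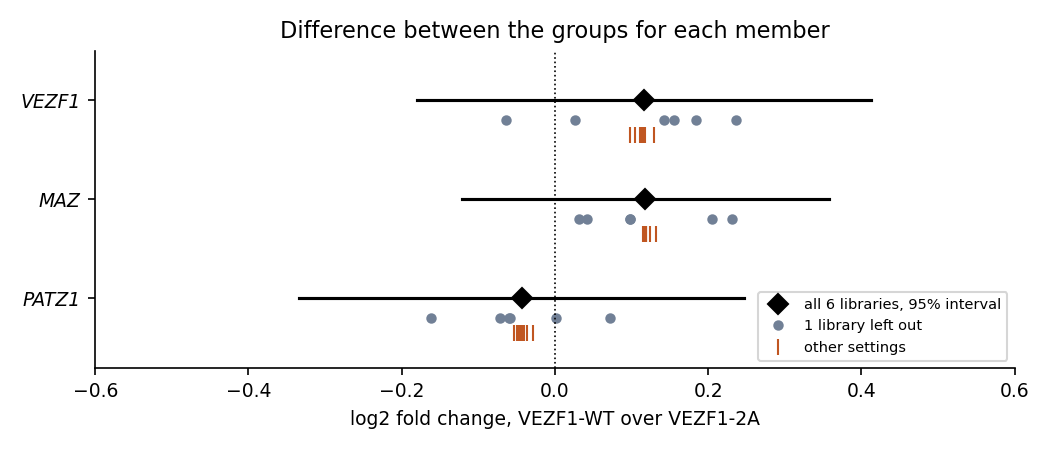
Diamonds give the log2 fold change of VEZF1-WT over VEZF1-2A for VEZF1, MAZ and PATZ1 with its 95% interval as a line, grey points the value with 1 library left out and orange ticks the value under other settings. All 3 intervals include 0, and grey points of VEZF1 and PATZ1 lie on both sides of it.

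Levels of different genes were compared per length, as FPKM (CPM divided by the length of the exons in kilobases, with the lengths in the table). MAZ was the most abundant at 21.2 ± 2.61 FPKM (SD over 6 libraries), above 89.1% of the genes tested. VEZF1 followed at 9.45 ± 1.496 FPKM, above 78.4%, and PATZ1 came last at 1.30 ± 0.143 FPKM, above 37.3%. By this length, the order MAZ, VEZF1, PATZ1 held in all 6 libraries and the ranges did not meet, with 17.8 to 24.3 FPKM for MAZ, 7.91 to 12.1 FPKM for VEZF1 and 1.05 to 1.48 FPKM for PATZ1. The place of VEZF1 in this order depends on the length used. The longest complete coding sequence makes up 31.8% of the VEZF1 exons, 42.1% of those of MAZ and 35.5% of those of PATZ1, and how much of the VEZF1 count came from a fragment that may have carried the coding part alone was not tested. If all of it did, VEZF1 would stand at 29.7 FPKM on average (24.9 to 37.9 FPKM), above MAZ at its full exon length in all 6 libraries. With all members taken per coding length, the values would be 29.7 for VEZF1, 50.4 for MAZ and 3.67 for PATZ1. Counts per gene do not separate isoforms, of which GENCODE 29 lists 2 with a complete coding sequence for VEZF1, 10 for MAZ and 4 for PATZ1.

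VEZF1 and MAZ varied between libraries of one group more than most genes at their level. The SD of log2 CPM within groups was 0.24 for VEZF1, larger than in 95.6% of the 500 genes closest to it in mean level, whose median SD was 0.084. For MAZ it was 0.19, larger than in 94.0% of its 500 closest genes, which had a median of 0.074. PATZ1, with 0.18, was above 70.2% of the genes at its own lower level, where the median was 0.145. Without both libraries numbered 3 the SDs were 0.19, 0.14 and 0.16, larger than in 97.0%, 93.6% and 71.4% of the closest genes. VEZF1 and MAZ thus stayed among the more variable genes at their level without replicate 3.

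The spreads of VEZF1 and MAZ ran in opposite directions in replicate 3. The ratio of MAZ to VEZF1 in FPKM, which does not depend on the scaling of a library, was 1.87, 2.08 and 2.99 for VEZF1-WT, against 1.89, 2.00 and 2.97 for VEZF1-2A. Both libraries numbered 3 had the highest ratio of their group, and those numbered 1 and 2 kept within 1.87 to 2.08. The labels do not say what a replicate number marks, and its part in this was not tested. MAZ to PATZ1 was at 17.3, 18.3 and 16.5 for VEZF1-WT, against 13.8, 14.1 and 18.5 for VEZF1-2A. VEZF1 to PATZ1 was 9.24, 8.80 and 5.51 for VEZF1-WT, against 7.26, 7.05 and 6.21 for VEZF1-2A, again lowest in replicate 3. Between the groups, the log2 count ratio of VEZF1 to MAZ differed by -0.02, that of VEZF1 to PATZ1 by 0.16 and that of MAZ to PATZ1 by 0.18, with two-sided exact permutation p-values of 0.9, 0.6 and 0.4 and an adjusted p of 0.9 for each of the 3 pairs. With 1 library left out, the second ranged from 0.03 to 0.40 and the third from 0.11 to 0.32. Without both libraries numbered 3 the differences were -0.02, 0.33 and 0.35 (exact permutation p = 1, 0.333 and 0.333, where 2 libraries against 2 cannot give less than 0.333).

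**Figure D4:**
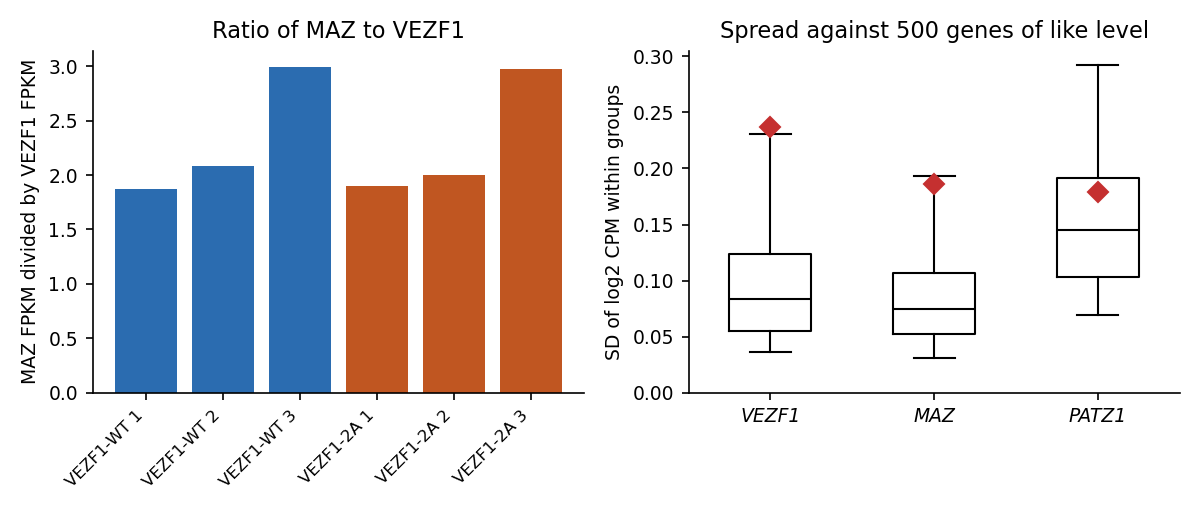
Left, bars give the ratio of MAZ to VEZF1 in FPKM in each library, with VEZF1-WT in blue and VEZF1-2A in orange; replicate 3 of each group stands near 3.0 and the rest near 2.0. Right, red diamonds give the SD of log2 CPM within groups for each member beside a box plot of its 500 closest genes (box, quartiles; whiskers, 5% to 95%).

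Over the 6 libraries no pair of members showed a relation that passed a test. VEZF1 and MAZ had a Pearson r of -0.25 (exact permutation p = 0.638, adjusted over 3 pairs 0.904) and a Spearman rho of -0.43 (exact permutation p = 0.419, adjusted 0.629). VEZF1 and PATZ1 had an r of -0.08 and a rho of 0.26 (exact permutation p = 0.904 and 0.658, adjusted 0.904 and 0.658). MAZ and PATZ1 had an r of 0.43 and a rho of 0.49 (exact permutation p = 0.449 and 0.356, adjusted 0.904 and 0.629). With the 2 libraries farthest from the median of the first gene left out, r was -0.83, -0.32 and 0.36 over 4 libraries. Without both libraries numbered 3 it was 0.92, 0.39 and 0.17 over 4 libraries, so the sign for VEZF1 and MAZ, and for VEZF1 and PATZ1, rests on those libraries. Deviations from the group means gave -0.39, -0.03 and 0.55.

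The genes whose pattern over the libraries was most like that of each member were looked for among those with a mean of at least 10 CPM. Closest to VEZF1 were SORD2P, a pseudogene of sorbitol dehydrogenase (r = 0.998 over 6 libraries), PPP4R3B, a regulatory subunit of protein phosphatase 4 (0.990), and MRTO4, a ribosome assembly factor (0.978). MAZ was followed most closely by H2AZ1, the histone variant H2A.Z (0.998), and the RNA-binding proteins QKI (0.996) and HDLBP (0.993). For PATZ1 these were ECHDC2 (0.986), SMURF2P1, a pseudogene (0.974), and OGFOD3 (0.970). An r compares the pattern over libraries and not the size of the changes. SORD2P ran from 24.0 to 26.5 CPM, against 38.9 to 59.3 CPM for VEZF1. H2AZ1 ran from 44.3 to 59.7 CPM, against 62.6 to 85.5 CPM for MAZ. ECHDC2 ran from 11.4 to 13.4 CPM, against 6.12 to 8.57 CPM for PATZ1. An r over 0.9 was reached by 33 of 8842 genes with VEZF1, by 427 of 8842 with MAZ and by 36 of 8843 with PATZ1. Without both libraries numbered 3 the 9 named genes had an r of 0.970 to 0.999, and 527, 479 and 348 genes passed 0.9 over the 4 libraries left. These are the highest of a great many correlations over 6 points that share libraries and depth, and are given as a description.

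MAZ shares exon with other counted genes, so some of its reads may also fit another gene. AC009133.2 and AC009133.1 on the minus strand and AC009133.5 on the plus strand share 514, 1536 and 214 bases of exon with MAZ, which is 94.0%, 38.0% and 45.2% of their own lengths. AC009133.1 had 0.802 to 0.853 times the count of MAZ in every library, with a coefficient of variation of 2.09% over the 6. AC009133.2, which lies almost wholly inside MAZ, had 0.160 to 0.173 times its count, which per base was 1.03 to 1.11 times that of MAZ. For AC009133.5 the ratio was 0.0801 to 0.0905. All 3 thus tracked MAZ from library to library, and their log2 fold changes of 0.12, 0.10 and 0.09 were near that of MAZ. Over the table, 232 of 236 antisense genes of at least 200 bases that lie wholly inside the exons of a well-covered gene had counts above 0, with a median per-base count of 0.5 times that of the gene around them. The strand setting and the treatment of reads on 2 genes are not given in the sources used here, so whether the counts of MAZ and of its overlapping genes hold the same reads was not tested.

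**Figure D5:**
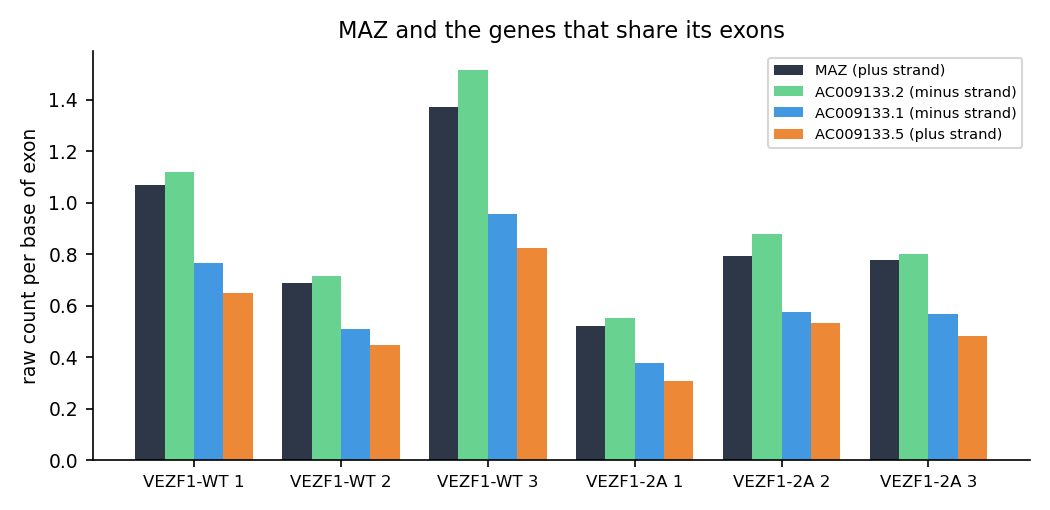
Bars give the raw count per base of exon for MAZ and for the 3 genes that share its exons, in each library. Heights differ with library size, and within each library AC009133.2 stands slightly above MAZ while AC009133.1 and AC009133.5 stand below it.

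VEZF1 shares 80 bases, 1.63% of its exon length, with AC015813.7 on the plus strand, which was counted at 24 to 50 reads and 1.33 FPKM, with a log2 fold change of -0.30 (edgeR adjusted p = 0.9996). PATZ1 shares exon with no other gene of the table. The nearest genes that passed the filter were CUEDC1 and AC015813.2 for VEZF1, KIF22 and PRRT2 for MAZ, and PIK3IP1 and LINC01521 for PATZ1. AC015813.2 lies on the same strand with its 3′ end 778 bases from the 5′ end of VEZF1 and was far more abundant, at 101 FPKM, with 234 ± 11.97 CPM (SD, n = 3) in VEZF1-WT and 224 ± 11.6 CPM (SD, n = 3) in VEZF1-2A. KIF22, a kinesin motor gene 721 bases from MAZ, was at 49.9 ± 6.99 and 47.3 ± 3.02 CPM (SD, n = 3). In all 6 neighbours the groups overlapped, and the unadjusted p from edgeR was 0.129 to 0.696.

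Other factors that read G-rich DNA, taken from lists chosen with earlier results known, give the surroundings of the members. Of 24 listed G-rich and GC-box binding C2H2 factors, 22 were tested and 0 had an unadjusted p under 0.05, against 2.13% of all genes tested. Lists this short cannot tell a count of 0 from that share. In 3 of the 22 the groups did not overlap, against 7.36% of all genes tested and 0 genes in each of the next 3 lists. Their median log2 fold change was 0.01, against 0.00 for all genes tested. That median changed sign with single libraries, to -0.015 without replicate 1 and -0.013 without replicate 2 of VEZF1-WT and to -0.05 without replicate 3 of VEZF1-2A. CTCF, the insulator protein, was the most abundant of them per length at 17.9 FPKM, followed by KLF6 at 13.5 and ZBTB17 at 8.87. On this scale, by means over all libraries, MAZ was above CTCF, and VEZF1 lay between KLF6 and ZBTB17. In single libraries this order did not always hold. VEZF1 was at 8.14 and 7.91 FPKM in replicate 3 of VEZF1-WT and VEZF1-2A, under the ZBTB17 mean. MAZ was at 17.8 FPKM in replicate 1 of VEZF1-2A, under the CTCF mean. The place of VEZF1 also depends on the length used. Of 18 factors with a POZ domain like that of PATZ1, 16 were tested. In this list 0 had an unadjusted p under 0.05, against 2.13% of all genes tested, and the median was 0.03. ZBTB17, ZBTB2 (4.52 FPKM) and ZBTB38 (4.29 FPKM) led that list, all above PATZ1.

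The next list held CTCF, beside which MAZ has been placed at insulators, cohesin and its loaders, and also CTCFL, WAPL, PDS5A, PDS5B, YY1 and ZNF143. Of these 14 genes 13 were tested and 0 had an unadjusted p under 0.05, against 2.13% of all genes tested. Their median was 0.04, and SMC3 (55.8 FPKM), SMC1A (53.3 FPKM) and RAD21 (34.2 FPKM), subunits of the cohesin ring, were the highest. Of 10 partners and modifying enzymes of the members, 8 were tested. Here too 0 had an unadjusted p under 0.05, against 2.13% of all genes tested, and the median was -0.02. STUB1, a ubiquitin ligase, was the most abundant of these at 75.5 FPKM, ahead of RHOB, a small GTPase, at 27.9 and BPTF, a chromatin remodelling subunit, at 21.8.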

How the data were processed

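RNA of HepG2 cells was taken with a column kit and made into mRNA libraries. The authors deposited 1 table of raw read counts per gene (GRCh38 per the labels), not normalized. The aligner, counter, annotation release and strand setting are not given in the sources used here. Exons in the table nearly match GENCODE 29 (VEZF1 12 of 14, MAZ 39 of 40, PATZ1 12 of 13), whose transcripts gave the sequences and translations. A broken entry (ANK2, 5 lines) was left out. Groups came from the library titles. Every pair of libraries within a group was more unlike than sampling noise allows, with a chi-square of at least 3.49 for each degree of freedom, counts halved.

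Counts were fitted in R 4.3.3 with edgeR 4.0.16 (filterByExpr with minimum count 10 and minimum total 15, TMM, quasi-likelihood test, group alone, two-sided, Benjamini-Hochberg over 19111 genes). Single genes were compared by exact permutation tests of log2(CPM + 0.1), and ratios by the same test of log2 count ratios. The script was tested on simulated data. Alternatives were other scalings, no filter, DESeq2 1.42.0, limma 3.58.1 with voom, a replicate block, libraries left out, counts halved, mitochondrial genes left out, another pseudocount and coding lengths.

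Members and lists were chosen with earlier results of these data known. Named genes were the members, genes sharing their exons, their pseudogenes, their nearest tested neighbours, the 3 most alike genes for each and, of each list, genes at an unadjusted p under 0.05 and, except for the marker lists, the 3 highest in FPKM; the other marker genes named (LYZ, PTPRC) were chosen after their values were seen. The result for 1 marker gene that this rule names is not reported here.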

Additional observations from a re-analysis of the deposited data

How the results depend on the processing

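With 1 library left out at a time, the log2 fold change ranged from -0.064 to 0.24 for VEZF1 (-0.064 without replicate 1 of VEZF1-WT), from 0.03 to 0.23 for MAZ and from -0.16 to 0.072 for PATZ1 (0.072 without replicate 2 of VEZF1-WT and 0.0018 without replicate 2 of VEZF1-2A). No member reached an adjusted p under 0.05 in any of these or the other settings, and the lowest unadjusted p was 0.0334, for MAZ without replicate 3 of VEZF1-2A (edgeR). The log2 ratio of VEZF1 to MAZ moved between -0.22 and 0.18 (0.18 without replicate 3 of VEZF1-WT, 0.10 and 0.06 without replicates 1 and 2 of VEZF1-2A). Pearson's r turned to 0.92 for VEZF1 and MAZ and to 0.39 for VEZF1 and PATZ1 without both libraries numbered 3. Genes at an adjusted p under 0.05 numbered 16 of 38745 without the filter and 3 of 38745 with DESeq2. Without both libraries numbered 3 they were 4 of 19360. At an unadjusted p under 0.05 these settings had 896, 235 and 833 genes, against 408 of 19111 in the main fit. With 1 library left out, 19329 to 19883 genes were tested and 292 to 973 had an unadjusted p under 0.05 (973 of 19883 without replicate 3 of VEZF1-2A). Groups did not overlap in 2432 of 38745 genes without the filter, against 1406 of 19111 with it. With the replicate number as a block, 6 genes passed the adjusted threshold and 825 the unadjusted one, and the members had 0.10, 0.12 and -0.05 (unadjusted p 0.163, 0.0804 and 0.657, edgeR); libraries with the same number correlated at 0.08, 0.15 and 0.38 in their deviations, and not every library correlated best with its own number. Per coding length, mean FPKM was 29.7 for VEZF1, 50.4 for MAZ and 3.67 for PATZ1. The cause of these shifts was not tested. PATZ1 had the lowest counts of the members, with 218 to 483 a library.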
